A study of Homo sapiens with 96 samples.

Results

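Keratins and vimentin form the intermediate filaments of epithelial and mesenchymal cells. The 8 genes described here are the basal keratinocyte keratins KRT5, KRT14 and KRT15, the simple epithelial keratins KRT7, KRT8, KRT18 and KRT19, and vimentin (VIM), out of 19775 genes measured on human U133 Plus 2.0 arrays. The platform annotation pairs 13 probe sets with these genes, and each gene was represented by its brightest probe set in the HaCaT construct lines, by mean level. These were 201820_at (KRT5), 209351_at (KRT14), 204734_at (KRT15), 209016_s_at (KRT7), 209008_x_at (KRT8), 201596_x_at (KRT18), 201650_at (KRT19) and 201426_s_at (VIM). The KRT8 and KRT18 probe sets carry the suffix of probes that can bind related transcripts, so their levels may include signal of near-identical copies. All values are log2 expression values, and a change is a difference on that scale. By mean level in the HaCaT construct lines the keratins lay between percentiles 97.25 and 99.58 of all genes, and VIM at 62.87. Shares of all genes given below include dim genes, which these members are not. A gene passed the test where the p-value of limma, adjusted over all 19775 genes by Benjamini-Hochberg, was under 0.05.

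HaCaT is a human keratinocyte line that became immortal spontaneously in culture. Its cells were transduced with a lentiviral vector carrying EGFR (HaCaT-EGFR), HRASVal12D (HaCaT-HRAS) or PIK3CA-HR (HaCaT-PIK3CA), or were the matched control line (HaCaT-Mock). Expression was driven by a CMV promoter and transduced cells were selected with puromycin. The study's methods do not say whether pools or clones were kept. EGFR binds epidermal growth factor at the cell surface, HRAS is a GTPase that activates MAPK signalling, and PIK3CA encodes the catalytic chain of the lipid kinase PI3K. Each line received afatinib (10 nM, an irreversible inhibitor of ERBB kinases), gefitinib (100 nM, a reversible EGFR kinase inhibitor) or cetuximab (100 nM, an antibody against EGFR), against PBS. There were 3 arrays per treatment and line, except 2 for gefitinib in HaCaT-PIK3CA and 2 for PBS in HaCaT-EGFR. Each line was also transfected with siRNA against EGFR (siEGFR) or with scramble siRNA (3 arrays each), or with scramble siRNA together with an inhibitor (1 array per inhibitor) or PBS (2 arrays, 1 in HaCaT-Mock). The carcinoma lines SCC1, SCC25 and FaDu had 2 arrays each and parental HaCaT cells 1.

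Keratins assemble as pairs of a type I and a type II chain. In stratified epithelia the basal layer expresses the type II keratin KRT5 with the type I keratin KRT14, and KRT15 is a further type I keratin of basal cells. Simple epithelia express KRT8 (type II) with KRT18 (type I), and often KRT7 (type II) and KRT19 (type I). KRT19 is also found in stratified epithelia. Vimentin is a type III protein of mesenchymal cells that many cultured epithelial cells also make.

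Promoter windows of 300 bases around the start site were at hand from RefSeq (GRCh38.p14) for 3 of the 8 genes and are shown because KRT5 rose and KRT8 and VIM fell under the EGFR inhibitors. The windows lie at chr12:52520345-52520644 (KRT5, minus strand), chr12:52926420-52926719 (KRT8, minus strand) and chr10:17227991-17228290 (VIM, plus strand). Capitals mark motif matches. KRT14, KRT15, KRT7, KRT18 and KRT19 are named only.
KRT5: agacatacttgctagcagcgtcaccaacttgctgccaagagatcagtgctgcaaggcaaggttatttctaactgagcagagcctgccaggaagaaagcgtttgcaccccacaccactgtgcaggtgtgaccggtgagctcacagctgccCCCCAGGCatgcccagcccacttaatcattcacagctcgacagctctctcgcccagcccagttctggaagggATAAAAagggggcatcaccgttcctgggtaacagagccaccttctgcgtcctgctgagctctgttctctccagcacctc
KRT8: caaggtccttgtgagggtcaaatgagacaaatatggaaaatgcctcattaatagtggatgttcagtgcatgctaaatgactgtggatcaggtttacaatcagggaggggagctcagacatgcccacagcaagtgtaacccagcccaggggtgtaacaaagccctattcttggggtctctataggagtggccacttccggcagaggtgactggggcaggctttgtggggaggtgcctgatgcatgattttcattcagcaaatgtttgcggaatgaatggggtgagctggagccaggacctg
VIM: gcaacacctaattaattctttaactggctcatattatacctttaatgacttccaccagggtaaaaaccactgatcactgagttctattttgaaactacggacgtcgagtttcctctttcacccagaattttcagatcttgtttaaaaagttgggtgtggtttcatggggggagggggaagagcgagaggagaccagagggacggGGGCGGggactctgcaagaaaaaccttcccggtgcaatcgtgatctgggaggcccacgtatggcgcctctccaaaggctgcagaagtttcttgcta

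The windows were searched on both strands for the TATA box, read as TATAAA, and for a looser form of it, ATAAAA. They were also searched for the AP-1 motif TGANTCA, the GC box GGGCGG, the AP-2 palindrome GCCNNNGGC and an older description of the AP-2 motif, CCNCNGGC. The KRT5 window held ATAAAA 29 bases before the start site and a CCNCNGGC match 101 bases before it. Of 35116 RefSeq promoter windows of this length, 16% held ATAAAA and 37.4% held CCNCNGGC, and both of these motifs were added to the search after the KRT5 sequence was seen. The VIM window held GGGCGG 46 bases before the start site, a motif found in 45% of windows. The KRT8 window held none of these letters. TATAAA was in 11.5%, TGANTCA in 7.71% and GCCNNNGGC in 23.2% of all windows and in none of the 3 shown. The matches overlapped no other match.

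The labels put 53 arrays in batch J, 16 in batch E, 26 in batch M and 1 in batch P, and batch shifted several of these genes. In the fitted model KRT5 was 0.99 higher in batch M than in batch J, KRT7 0.70, KRT14 0.69 and KRT8 0.65, while KRT15, KRT18, KRT19 and VIM differed by at most 0.19. The 3' to 5' difference of the ACTB control probe sets lay between 1.20 and 1.65 in batch E and between 0.0949 and 0.587 in batch M. In batch J it lay between 0.995 and 1.845, except for 3.50 on HaCaT-HRAS gefitinib replicate 1. The part of this difference in the results was not tested beyond the batch term. Batch was therefore kept as a term in every comparison, and values within batch J are given beside the main ones. The arrays HaCaT-HRAS gefitinib replicates 1 and 2 and HaCaT-PIK3CA afatinib replicate 1 stood apart from their groups (array weights of 0.0578, 0.02 and 0.107, where 1 is average). Several results that rest on them are given with and without them. The comparison of gefitinib with cetuximab over the lines is not given without the 3 together. All 6 keratinocyte identity genes measured (among them DSG3, TRIM29 and PKP1) lay above the median of all genes, against 1 of 6 fibroblast, 1 of 4 melanocyte, 0 of 4 endothelial and 1 of 3 leukocyte markers. EGFR fell by 1.92 (SE 0.048, adjusted p = 8.1e-37) under siEGFR over the 4 lines. Whether replicate arrays came from separate cultures is not in the labels, and the p-values rest on array-to-array spread that may be only technical.

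The study treated each line with EGFR inhibitors to ask how blocking the receptor changes its transcripts. In HaCaT-Mock the 3 basal keratins rose under the inhibitors. KRT15 had 12.82, 13.00 and 12.81 under afatinib, 12.54, 12.91 and 12.62 under gefitinib and 11.94, 12.48 and 11.94 under cetuximab (batches J, E and M), against 10.33, 10.25 and 10.69 under PBS (batches J, J and E). Every inhibitor array lay more than 1 log2 unit above every PBS array, and the mean response was 2.09 (SE 0.15, adjusted p = 4.9e-17), a 4.26-fold rise. In a bulk measurement a change in the RNA of each cell cannot be told apart from a change in the share of cells that express the gene. KRT5 had 12.33, 12.29 and 12.89 under afatinib, 12.19, 12.32 and 12.98 under gefitinib and 11.94, 12.12 and 12.75 under cetuximab, against 10.89, 10.89 and 10.88 under PBS. The groups did not overlap, the arrays of batch M were the highest of each inhibitor, and the batch-adjusted response was 1.21 (SE 0.13, adjusted p = 6.5e-11). KRT14, the partner of KRT5, lay between 12.80 and 13.66 over the 9 inhibitor arrays (median 13.12), against 12.45, 12.37 and 12.03 under PBS, a rise of 0.68 (SE 0.12, adjusted p = 1.5e-05).

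**Figure D1:**
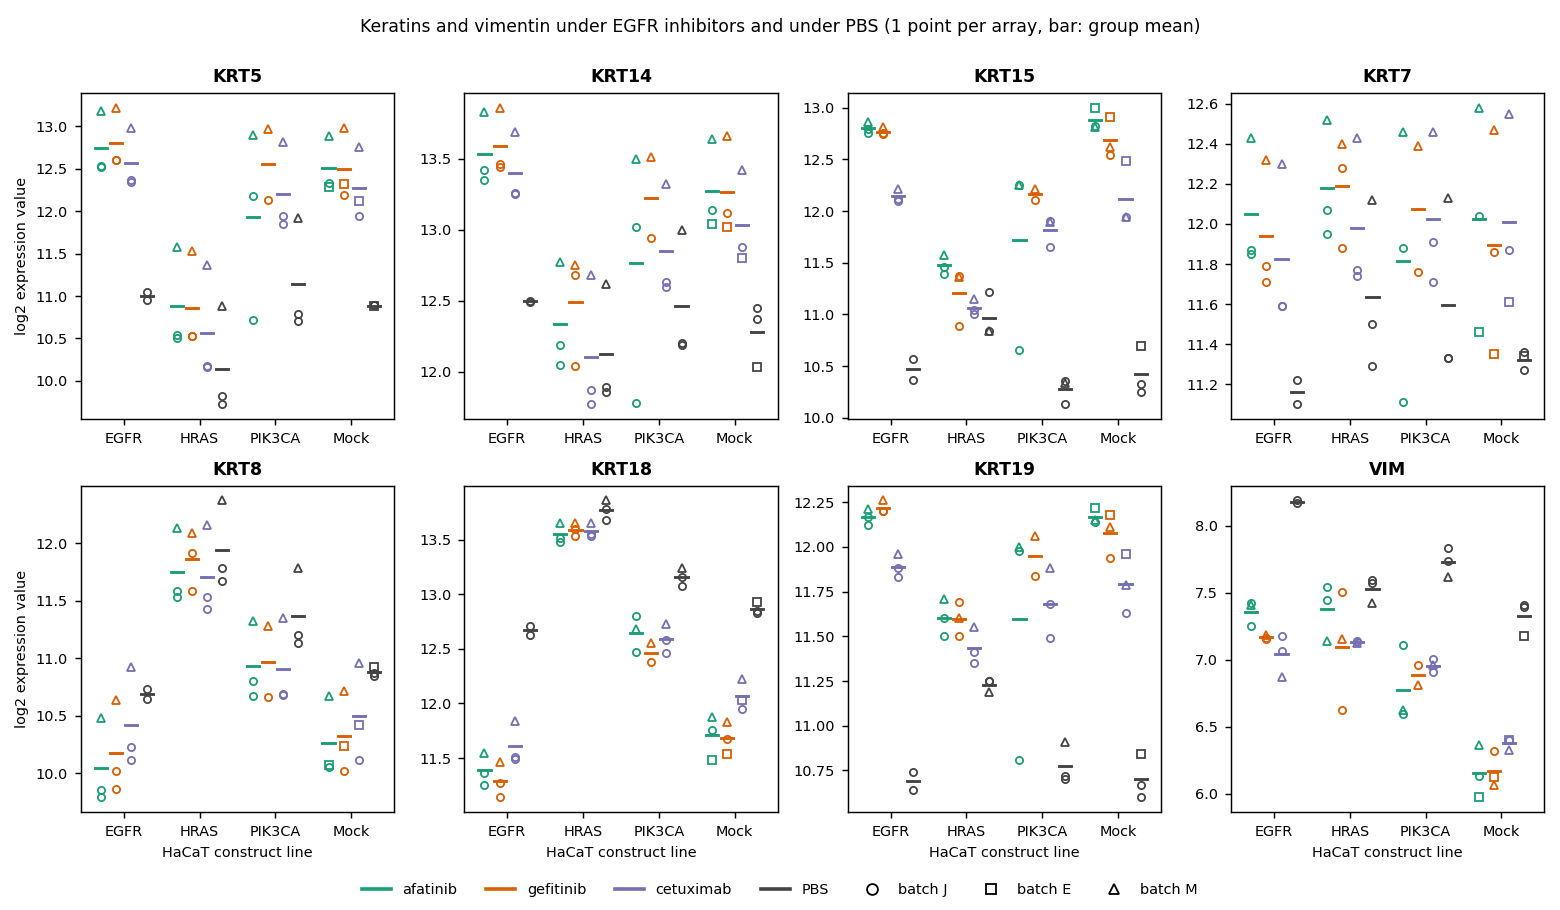
Log2 expression (vertical axes) of the 8 genes on each array under afatinib, gefitinib, cetuximab or PBS, by HaCaT construct line (horizontal axis), with point shape for batch and a bar for the group mean. In HaCaT-Mock the inhibitor arrays of KRT15 lie between 11.94 and 13.00 and the PBS arrays between 10.25 and 10.69, while in HaCaT-HRAS they lie between 10.89 and 11.57 and between 10.84 and 11.22.

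The simple epithelial keratins did not move as a group in HaCaT-Mock. KRT18 fell, with 11.76, 11.48 and 11.88 under afatinib, 11.67, 11.54 and 11.83 under gefitinib and 11.95, 12.03 and 12.22 under cetuximab, against 12.85, 12.83 and 12.93 under PBS. All inhibitor arrays lay below all PBS arrays, by 1.11 in the fitted model (SE 0.053, adjusted p = 7.5e-23). Its partner KRT8 fell by 0.73 (SE 0.056, adjusted p = 9.5e-16), with 10.02 to 10.12 on the 3 inhibitor arrays of batch J, against 10.87 and 10.85 on the PBS arrays of that batch. Over all batches the KRT8 groups overlapped, with 10.02 to 10.96 under inhibitors, against 10.85 to 10.92 under PBS. With no batch term the KRT8 change was -0.52 (adjusted p = 0.12). KRT19 rose, and its inhibitor arrays lay between 11.63 and 12.22 (median 12.11), against 10.67, 10.60 and 10.84 under PBS. The groups did not overlap and the response was 1.26 (SE 0.099, adjusted p = 3.2e-15). KRT7 rose by 0.42 (SE 0.099, adjusted p = 0.00058), with 11.86 to 12.04 under inhibitors, against 11.36 and 11.27 under PBS within batch J. In batch E the gefitinib array read 11.35 for KRT7, against 11.34 on the PBS array, so this gene overlapped between the groups. VIM fell, with 6.14, 5.98 and 6.37 under afatinib, 6.32, 6.13 and 6.06 under gefitinib and 6.40, 6.40 and 6.32 under cetuximab, against 7.41, 7.39 and 7.18 under PBS. No VIM array overlapped, and the response was -1.08 (SE 0.094, adjusted p = 1.1e-13).

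In HaCaT-Mock all 8 genes passed the test, 5 higher and 3 lower, against 28.7% of all 19775 genes. With genes of at least median level alone 5169 passed, beside 5668 of all genes, so the share among brighter genes was higher. The median response of the 8 genes was 0.55, beside 0.0071 over all genes. Within batch J alone (3 inhibitor arrays against 2 PBS arrays) the differences were 2.14 (KRT15), 1.26 (KRT5), 0.64 (KRT14), 0.61 (KRT7), 1.27 (KRT19), -0.79 (KRT8), -1.05 (KRT18) and -1.11 (VIM). Within batch E (3 inhibitor arrays against 1 PBS array) they were 2.11, 1.36, 0.92, 0.13, 1.28, -0.68, -1.25 and -1.01 in the same order of genes. KRT7 was thus the gene whose size differed most between these batches.

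HaCaT-EGFR cells responded with the same signs. KRT15 lay between 12.10 and 12.86 on 9 inhibitor arrays (median 12.75), against 10.37 and 10.57 under PBS, and rose by 2.05 (SE 0.17, adjusted p = 5e-14). KRT5 rose by 1.38 (SE 0.15), KRT19 by 1.35 (SE 0.12), KRT14 by 0.79 (SE 0.15) and KRT7 by 0.55 (SE 0.12). KRT18 lay between 11.14 and 11.84 (median 11.46) under inhibitors, against 12.71 and 12.63 under PBS, a change of -1.30 (SE 0.062, adjusted p = 3.8e-23). KRT8 changed by -0.69 (SE 0.065) and VIM by -0.97 (SE 0.11), with VIM at 6.87 to 7.42 under inhibitors, against 8.19 and 8.17 under PBS. Within batch J, 6 of 6 inhibitor arrays lay beyond both PBS arrays for each of the 8 genes. The share of all genes that separated in this way was not counted. Over all batches the KRT8 groups overlapped, with 9.79 to 10.92 under inhibitors, against 10.65 to 10.73 under PBS. All 8 passed the test, against 26.4% of all genes. No member differed between the inhibitor responses of HaCaT-EGFR and HaCaT-Mock in limma's test of the difference (0 of 8, against 0.0708% of all genes). In that test 1 of 8, KRT18 at -0.19 (95% interval -0.35 to -0.025), had an unadjusted p under 0.05, against 1405 of all 19775 genes.

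HaCaT-PIK3CA cells again had all 8 genes called, against 20.3% of all genes. KRT15 had 10.66, 12.25 and 12.25 under afatinib, 12.11 and 12.21 under gefitinib and 11.65, 11.90 and 11.89 under cetuximab, against 10.36, 10.13 and 10.34 under PBS. The first afatinib array lay near the PBS arrays and the other 7 inhibitor arrays lay far above them. The mean response of KRT15 was 1.61 (SE 0.15, adjusted p = 2.1e-12), and 1.79 (SE 0.092) without that array. That array read 10.72 for KRT5, against 10.71 and 10.79 on the PBS arrays of its batch, and 10.81 for KRT19, against 10.72 and 10.70. It read 9.57 for DUSP6, a phosphatase induced by MAPK signalling, where the other afatinib arrays read 8.16 and 7.73, against 9.96, 10.16 and 9.80 under PBS. The response of KRT5 was 1.03 (SE 0.13), and 1.18 (SE 0.084) without it. KRT19 rose by 0.96 (SE 0.10), KRT14 by 0.45 (SE 0.13) and KRT7 by 0.34 (SE 0.10), while KRT8 changed by -0.47 (SE 0.056), KRT18 by -0.60 (SE 0.054) and VIM by -0.85 (SE 0.095). Under afatinib alone 6 of 8 genes passed with that array (against 9.29% of all genes) and all 8 without it, and KRT14 was at 0.30 with it and at 0.69 without it (adjusted p = 1.8e-05). KRT7 lost its call without PBS replicate 1 or without PBS replicate 2 (0.32 each, adjusted p = 0.059 each).

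HaCaT-HRAS cells had the smallest responses of the 4 lines for every member but KRT7. KRT15 had 11.46, 11.39 and 11.57 under afatinib, 10.89, 11.37 and 11.36 under gefitinib and 11.04, 11 and 11.15 under cetuximab, against 10.84, 11.22 and 10.84 under PBS. The groups overlapped, and the change was 0.28 (SE 0.14, adjusted p = 0.29). KRT18 lay between 13.48 and 13.65 (median 13.55) on 9 inhibitor arrays, against 13.78, 13.68 and 13.86 under PBS, a change of -0.20 (SE 0.053, adjusted p = 0.013). KRT5 rose by 0.63 (SE 0.13, adjusted p = 0.0012), with 10.16 to 10.54 on the 6 inhibitor arrays of batch J, against 9.72 and 9.83 under PBS. KRT7 rose by 0.48 (SE 0.099, adjusted p = 0.0012), KRT19 rose by 0.31 (SE 0.098, adjusted p = 0.043) and VIM changed by -0.33 (SE 0.093, adjusted p = 0.022). KRT14 (0.19, adjusted p = 0.47) and KRT8 (-0.17, adjusted p = 0.061) did not pass. The count was thus 5 of 8, against 6.01% of all genes. KRT19 lost its call without any of 9 of the 12 arrays (0.24 to 0.35, adjusted p 0.053 to 0.37), VIM without any of the 3 PBS arrays (-0.37 to -0.30, adjusted p 0.077 to 0.13) and KRT18 without PBS replicate 1 (-0.16, adjusted p = 0.15) or 3 (-0.22, adjusted p = 0.058). It was 2 without HaCaT-HRAS PBS replicate 1 or PBS replicate 3, 3 without PBS replicate 2, and 1 with batch J arrays alone. Without the 3 arrays that stood apart 7 passed, with KRT15 at 0.31 (adjusted p = 0.021) and KRT8 at -0.24 (adjusted p = 0.00021).

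The difference between the inhibitor responses of HaCaT-HRAS and HaCaT-Mock was tested itself, and 6 of 8 genes passed, against 9.53% of all genes. KRT15 differed most, by -1.81 (SE 0.20, adjusted p = 3.6e-09), followed by KRT19 at -0.95 (SE 0.14, adjusted p = 2e-06) and KRT18 at 0.91 (SE 0.075, adjusted p = 4e-13). VIM differed by 0.75 (SE 0.13, adjusted p = 6e-05), KRT8 by 0.57 (SE 0.078, adjusted p = 5.4e-07) and KRT5 by -0.58 (SE 0.18, adjusted p = 0.033). Each of these 6 genes moved less in HaCaT-HRAS than in HaCaT-Mock. KRT14 differed by -0.49 (adjusted p = 0.066) and KRT7 by 0.057 (95% interval -0.22 to 0.34, adjusted p = 0.88). Within batch J the differences were -1.98 (KRT15), -1.01 (KRT19), 0.85 (KRT18), 0.76 (VIM), 0.67 (KRT8), -0.63 (KRT5), -0.41 (KRT14) and -0.056 (KRT7). The KRT5 call was lost without HaCaT-HRAS PBS replicate 2 (-0.57, adjusted p = 0.086) or 3 (-0.54, 0.094), HaCaT-Mock PBS replicate 2 (-0.61, 0.051) or 3 (-0.49, 0.15), or HaCaT-Mock afatinib replicate 1 (-0.54, 0.055). Without the 3 arrays that stood apart KRT14 passed too (-0.56, adjusted p = 0.00024). In HaCaT-PIK3CA, KRT18 alone differed from HaCaT-Mock in its response, by 0.51 (SE 0.076, adjusted p = 6.2e-05; 1 of 8, against 0.142% of all genes), and with batch J arrays alone this was 0.44 (adjusted p = 0.37).

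**Figure D2:**
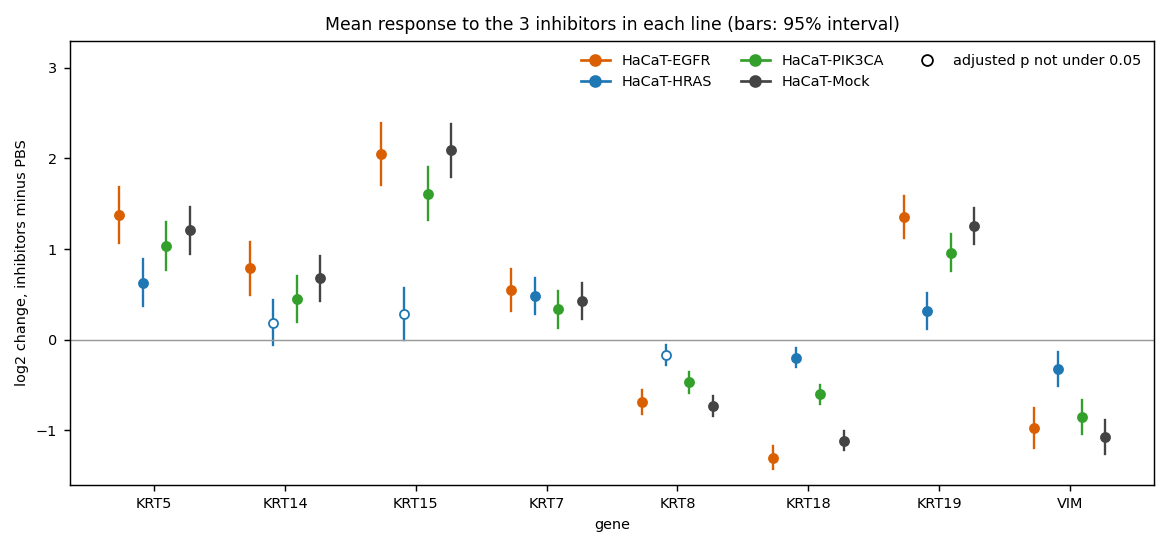
Mean log2 change under the 3 inhibitors relative to PBS (vertical axis) for each gene (horizontal axis) in HaCaT-EGFR, HaCaT-HRAS, HaCaT-PIK3CA and HaCaT-Mock, with 95% intervals and open points where the adjusted p was not under 0.05. The HaCaT-HRAS points lie nearest to 0 for every gene except KRT7, for example 0.28 for KRT15 beside 1.61 to 2.09 in the other lines.

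Averaged over the 4 lines with equal weight, KRT15 rose by 1.51 (SE 0.076, adjusted p = 3.1e-23), KRT5 by 1.06 (SE 0.068, adjusted p = 3.2e-19), KRT19 by 0.97 (SE 0.052, adjusted p = 2.7e-22), KRT14 by 0.52 (SE 0.065, adjusted p = 1.2e-09) and KRT7 by 0.45 (SE 0.052, adjusted p = 1.9e-10). KRT18 changed by -0.80 (SE 0.028, adjusted p = 5.1e-30), VIM by -0.81 (SE 0.049, adjusted p = 3.8e-20) and KRT8 by -0.52 (SE 0.029, adjusted p = 2.3e-21). All 8 passed, against 39.2% of all genes. With genes of at least median level alone 6631 passed, beside 7751 of all genes. Without the 3 arrays that stood apart KRT15 was at 1.57 and KRT8 at -0.54. Other genes of the filament system were taken from lists. Of 10 other keratins, 6 rose and none fell, with KRT4 at 2.45 (SE 0.13) and KRT13 at 1.81 (SE 0.14), a keratin pair of mucosal suprabasal cells, and the type II keratin KRT80 at 0.44 (SE 0.042). Of 10 genes that link keratin filaments to desmosomes and other structures, 6 rose and 1 fell, among them PKP1, a desmosomal plaque protein (0.83, SE 0.060), JUP, plakoglobin (0.45, SE 0.051), and PPL, periplakin (0.43, SE 0.040). Of 8 hemidesmosome and basement membrane genes, 5 fell and none rose, with the integrin subunits ITGA6 at -0.37 (SE 0.034) and ITGA3 at -0.28 (SE 0.045) and DST, which anchors keratin at hemidesmosomes, at -0.36 (SE 0.058). Of 11 further simple epithelial genes, 7 rose and 2 fell, with the epithelial transcription factor ELF3 at 1.62 (SE 0.083). Of 13 further mesenchymal genes, 2 rose and 5 fell, so vimentin's direction was not that of the whole list: SPARC, a matrix protein, rose by 0.68 (SE 0.039) while the receptor kinase AXL (-0.50, SE 0.043) and fibronectin FN1 (-0.26, SE 0.040) fell. The list medians were 0.28, 0.16, -0.16, 0.26 and -0.0024 in this order, beside -0.0054 over all genes.

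Some markers of other cell types also moved under the inhibitors. Of those that moved, COL1A1 (mean 7.25) and MITF (7.44) lay above the median of all genes (6.10) and the others below it. Endothelial markers VWF (0.71, SE 0.068) and CDH5 (0.60, SE 0.070) rose, 2 of 4, and the mean level of that list lay between 4.53 and 5.30 over 35 inhibitor arrays, against 4.51 to 4.78 over 11 PBS arrays. Of 6 fibroblast markers, COL3A1 (0.49) and DCN (0.20) rose and COL1A1 (-0.11) fell, with list means of 4.85 to 5.39 under inhibitors, against 4.96 to 5.27 under PBS. Of 4 melanocyte markers PMEL (0.16) rose and MITF (-0.19) and TYR (-0.12) fell, with list means of 5.26 to 5.64, against 5.29 to 5.74. None of 3 leukocyte markers passed. On this log2 scale no marker reads 0, and the part of these cells in the keratin changes was not tested.

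Each inhibitor was also set against the same PBS arrays. Over the lines KRT15 rose by 1.66 under afatinib, 1.64 under gefitinib and 1.23 under cetuximab, and KRT18 changed by -0.83, -0.90 and -0.69 in that order. All 8 genes passed under each inhibitor, against 37.1% (afatinib), 37.5% (gefitinib) and 28.8% (cetuximab) of all genes. Afatinib was given at another dose than gefitinib and cetuximab and was not compared with them. Gefitinib and cetuximab, a small kinase inhibitor and an antibody at the same molar dose, were compared as 1 pair over the lines. KRT15 was 0.41 higher under gefitinib (SE 0.091, adjusted p = 0.0015), KRT14 0.27 (SE 0.078, adjusted p = 0.018), KRT19 0.25 (SE 0.062, adjusted p = 0.0043) and KRT5 0.24 (SE 0.081, adjusted p = 0.046), and KRT18 differed by -0.21 (SE 0.033, adjusted p = 1.8e-05). These were 5 of 8, against 10.8% of all genes. KRT7 differed by 0.034 (95% interval -0.091 to 0.16), VIM by -0.044 (-0.16 to 0.073) and KRT8 by -0.081 (-0.15 to -0.011), which did not pass after adjustment. The KRT5 call was lost in 16 of 23 fits that left out 1 array (0.21 to 0.26, adjusted p 0.052 to 0.12), KRT14 lost its call without HaCaT-HRAS gefitinib replicate 1 or HaCaT-PIK3CA gefitinib replicate 1 (0.21 and 0.25, adjusted p = 0.057 and 0.058), and none of the 5 passed with batch J arrays alone (adjusted p 0.094 to 0.29).

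Each inhibitor was also tested within single lines. Under afatinib 8 of 8 members passed in HaCaT-EGFR (against 26.7% of all genes) and in HaCaT-Mock (against 28.5%). Under gefitinib 8 of 8 passed in HaCaT-EGFR (against 24.7%), 7 of 8 in HaCaT-PIK3CA (against 17.4%, KRT7 being at 0.36, adjusted p = 0.058) and 8 of 8 in HaCaT-Mock (against 24.1%). Under cetuximab the counts were 8 of 8 in HaCaT-EGFR (against 13.8%), 7 of 8 in HaCaT-PIK3CA (against 17.7%, KRT14 being at 0.39, adjusted p = 0.069) and 8 of 8 in HaCaT-Mock (against 14.4%). Some of these calls did not hold when 1 array was left out. KRT7 under cetuximab in HaCaT-EGFR was lost without PBS replicate 1 or 2 or cetuximab replicate 1 or 2 (0.37 to 0.49, adjusted p 0.052 to 0.22), and KRT7 under gefitinib in HaCaT-Mock without PBS replicate 1 or 2 or gefitinib replicate 1 or 3 (0.25 to 0.34, adjusted p 0.074 to 0.22). KRT14 was lost under cetuximab in HaCaT-Mock without PBS replicate 3 or cetuximab replicate 1 (0.35 and 0.47, adjusted p = 0.21 and 0.078) and under gefitinib in HaCaT-PIK3CA without gefitinib replicate 1 (0.58, adjusted p = 0.081). KRT5 was lost under afatinib in HaCaT-PIK3CA without afatinib replicate 2 (0.50, adjusted p = 0.052). In HaCaT-HRAS the inhibitors gave 3 of 8 calls under afatinib (KRT5, KRT7 and KRT18, against 4.45% of all genes), 5 of 8 under gefitinib (KRT5, KRT7, KRT18, KRT19 and VIM, against 15.8%) and 0 of 8 under cetuximab (against 0.319%). Under cetuximab in this line KRT5 was at 0.42 (adjusted p = 0.43) and VIM at -0.40 (adjusted p = 0.14). There 5 of 8 members had an unadjusted p under 0.05, against 1297 of all 19775 genes. The KRT18 call under afatinib was lost in each of 6 fits that left out 1 array (-0.24 to -0.19, adjusted p 0.06 to 0.18), and that under gefitinib in 5 of 6, all but the fit without gefitinib replicate 2 (-0.20 to -0.15, adjusted p 0.07 to 0.19). Without gefitinib replicate 1 the gefitinib calls of KRT7 (0.39, adjusted p = 0.093), KRT19 (0.29, adjusted p = 0.27) and VIM (-0.19, adjusted p = 0.39) were lost as well, and KRT19 also without PBS replicate 3 (0.29, adjusted p = 0.17). Under gefitinib the first array read 12.68 for KRT14 and 6.63 for VIM, while the second, of the same batch, read 12.04 and 7.51, against 11.89 and 11.86 for KRT14 and 7.57 and 7.59 for VIM under PBS. Without the arrays that stood apart the gefitinib group was 1 array of batch M, taken to vary like the other groups. In that fit KRT5 (0.75, adjusted p = 9e-04) and KRT8 (-0.30, adjusted p = 0.018) passed, and KRT7 (0.29, adjusted p = 0.35), KRT18 (-0.26, adjusted p = 0.079), KRT19 (0.29, adjusted p = 0.065) and VIM (-0.35, adjusted p = 0.11) did not. The difference between inhibitors within this line was not tested.

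The construct lines were compared with HaCaT-Mock under PBS to see how they differed without inhibitor. Each construct and the control was a single line, so an effect of the construct cannot be told apart from other differences between lines. The p-values do not measure spread between transductions. HaCaT-HRAS had the simple pair higher. KRT18 had 13.78, 13.68 and 13.86 in HaCaT-HRAS (batches J, J and M), against 12.85, 12.83 and 12.93 in HaCaT-Mock, and KRT8 had 11.78, 11.67 and 12.37, against 10.87, 10.85 and 10.92. Neither gene overlapped, and the differences were 0.83 (SE 0.066, adjusted p = 4e-15) and 0.87 (SE 0.069, adjusted p = 3.7e-15). KRT5 had 9.72, 9.83 and 10.88 in HaCaT-HRAS, against 10.89, 10.89 and 10.88 in HaCaT-Mock. Its batch J arrays were lower by over 1 log2 unit and its batch M array was not, and with batch in the model KRT5 differed by -1.01 (SE 0.16, adjusted p = 2.6e-06), and by -0.75 (adjusted p = 0.4) with no batch term. KRT19 was 0.53 higher (SE 0.12, adjusted p = 0.001), with 11.25, 11.25 and 11.19, against 10.67, 10.60 and 10.84, and KRT15 was 0.59 higher (SE 0.18, adjusted p = 0.015), with 10.84, 11.22 and 10.84, against 10.33, 10.25 and 10.69. The KRT15 call was lost without HaCaT-HRAS PBS replicate 2 (0.44, adjusted p = 0.16) or HaCaT-Mock PBS replicate 2 (0.55, adjusted p = 0.065). KRT14 (-0.38, adjusted p = 0.093), KRT7 (0.039) and VIM (0.18) did not pass. These were 5 of 8 genes, against 16.1% of all genes.

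Scramble siRNA arrays gave the HaCaT-HRAS comparison on other arrays of the same lines, and 5 of 8 genes passed there, against 14.9% of all genes. KRT18 differed by 0.66 (SE 0.065), KRT8 by 0.63 (SE 0.068), KRT19 by 0.69 (SE 0.12), KRT15 by 0.99 (SE 0.18) and KRT5 by -0.71 (SE 0.16), and VIM was at -0.24 (adjusted p = 0.17). Of the listed genes under PBS, the keratin KRT23 was 2.12 higher in HaCaT-HRAS (SE 0.14), KRT16, a keratin of wounded epidermis, 0.52 higher (SE 0.15) and KRT10, of suprabasal epidermis, was at -0.37 (SE 0.061), among 2 of 10 other keratins higher and 3 lower. Tight junction genes CLDN4 (0.90, SE 0.094) and CLDN7 (0.46, SE 0.078) were higher and the transcription factor OVOL2 was at -0.74 (SE 0.075), among 3 of 11 simple epithelial genes higher and 2 lower. Of 13 mesenchymal genes FN1 was higher (0.74, SE 0.094) and 5 were lower, with N-cadherin CDH2 at -0.81 (SE 0.11) and TGFBI at -0.37 (SE 0.061). MITF, 1 of 4 melanocyte markers, was 0.50 higher (SE 0.095), and the mean of that list was 5.60 to 5.74 in HaCaT-HRAS, against 5.39 to 5.55 in HaCaT-Mock.

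In HaCaT-EGFR, VIM was the only member that passed under PBS (1 of 8, against 0.698% of all genes). It read 8.19 and 8.17, against 7.41, 7.39 and 7.18 in HaCaT-Mock, a difference of 0.81 (SE 0.13, adjusted p = 9.6e-05), and 0.78 (adjusted p = 0.14) when the compared groups alone were fitted. Under scramble siRNA VIM was 0.58 higher again (SE 0.11, adjusted p = 0.00084), with 8.42, 8.38 and 8.38, against 7.76, 7.87 and 7.82. KRT15 was 1.62 higher there (SE 0.18, adjusted p = 2.9e-09), with 11.33, 11.37 and 11.80 in HaCaT-EGFR, against 9.91, 9.86 and 9.86 in HaCaT-Mock. Under PBS KRT15 had 10.37 and 10.57, against 10.33, 10.25 and 10.69, a difference of 0.15 (95% interval -0.26 to 0.55). Whether the construct difference of KRT15 itself differed between scramble siRNA and PBS was not tested. KRT5 (0.63, adjusted p = 0.014), KRT14 (0.58, adjusted p = 0.019) and KRT19 (0.48, adjusted p = 0.014) also passed under scramble siRNA (5 of 8, against 2.38% of all genes). KRT14 lost its call without any of HaCaT-EGFR scramble replicates 2 and 3 and HaCaT-Mock scramble replicates 1, 2 and 3 (0.55 to 0.59, adjusted p 0.059 to 0.1). KRT5 lost its call without HaCaT-EGFR scramble replicate 3 or HaCaT-Mock scramble replicate 2 or 3 (0.55 to 0.63, adjusted p 0.057 to 0.13), and KRT19 without HaCaT-EGFR scramble replicate 3 or HaCaT-Mock scramble replicate 3 (0.44 each, adjusted p = 0.095 and 0.098). HaCaT-PIK3CA had 1 of 8 genes called under PBS (against 0.162% of all genes), KRT8 at 0.31 (SE 0.069, adjusted p = 0.033), and the call was lost in each of 6 fits that left out 1 array. Under scramble siRNA 0 of 8 passed in HaCaT-PIK3CA, against 0.0303% of all genes. KRT8 and KRT18 had unadjusted p of 0.024 and 0.01 there, where 1098 of all 19775 genes had one under 0.05.

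Knockdown of EGFR asked the same question as the inhibitors by another route, and the responses of 7 of 8 genes differed from those under the inhibitors without siRNA. Over the 4 lines KRT5 rose by 0.33 (SE 0.079, adjusted p = 0.00084), KRT14 rose by 0.32 (SE 0.076, adjusted p = 0.00072) and KRT19 rose by 0.18 (SE 0.060, adjusted p = 0.016), while KRT18 changed by -0.23 (SE 0.032, adjusted p = 6.8e-08). These were 4 of 8, against 28.4% of all genes. With genes of at least median level alone 5146 passed, beside 5607 of all 19775. The count of 4 is therefore not read as a trait of these bright genes. KRT15 was at 0.19 (adjusted p = 0.12), KRT7 at 0.12 (adjusted p = 0.13), KRT8 at -0.055 (adjusted p = 0.25) and VIM at 0.13 (adjusted p = 0.097). Within batch J the differences were 0.35 (KRT5), 0.35 (KRT14), 0.19 (KRT19) and -0.25 (KRT18), and within batch M 0.28, 0.25, 0.18 and -0.18. The test of the difference between the siEGFR and inhibitor responses passed for 7 of 8 genes, against 26.8% of all genes. KRT15 was at -1.32 (SE 0.12), KRT19 at -0.79 (SE 0.080), KRT5 at -0.73 (SE 0.10), KRT7 at -0.32 (SE 0.080), KRT8 at 0.46 (SE 0.045), KRT18 at 0.58 (SE 0.043) and VIM at 0.93 (SE 0.075), and KRT14 was at -0.21 (adjusted p = 0.13). The siEGFR response was that of transfected cells and the inhibitor response that of cells without siRNA, so transfection differed between them. The siEGFR response was not tested against that to inhibitors given with scramble siRNA.

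Single lines showed KRT18 in 3 of 4. It had 12.64, 12.71 and 12.97 under siEGFR in HaCaT-Mock, against 12.93, 13.04 and 13.17 under scramble siRNA (batches J, J and M), a change of -0.27 (SE 0.065, adjusted p = 0.002). Every siEGFR array lay below the scramble arrays of its batch. In HaCaT-EGFR KRT18 had 12.42, 12.38 and 12.71, against 12.78, 12.76 and 12.97 (-0.33, adjusted p = 2e-04), and in HaCaT-PIK3CA 12.89, 12.88 and 13.06, against 13.22, 13.17 and 13.26 (-0.27, adjusted p = 0.0019). In HaCaT-HRAS KRT18 had 13.61, 13.65 and 13.77, against 13.62, 13.68 and 13.83, and VIM was the gene that passed, with 7.946, 8.002 and 7.961, against 7.57, 7.61 and 7.55, a rise of 0.40 (SE 0.11, adjusted p = 0.022). The VIM groups did not overlap, but the call was lost in 5 of 6 fits that left out 1 of these arrays (0.38 to 0.40, adjusted p 0.059 to 0.082). Each line thus had 1 of 8 genes called, against 9.46% (HaCaT-EGFR), 6.29% (HaCaT-HRAS), 11.6% (HaCaT-PIK3CA) and 10.8% (HaCaT-Mock) of all genes. No member's siEGFR response differed between a construct and HaCaT-Mock (0 of 8 in each of 3 tests, against 0.0101%, 0.0253% and 0% of all genes in HaCaT-EGFR, HaCaT-HRAS and HaCaT-PIK3CA). At an unadjusted p under 0.05 there were 0, 2 (KRT18 at 0.24 and VIM at 0.45) and 0 members in that order, against 640, 945 and 453 of all 19775 genes.

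Around these genes, siEGFR raised E-cadherin CDH1 by 1.12 (SE 0.12), SPARC by 0.71 (SE 0.045) and the linkers PKP1 by 0.46 (SE 0.069) and EPPK1 by 0.38 (SE 0.054), and lowered ITGA3, with a change of -0.75 (SE 0.052). Keratin filament linkers had 6 of 10 members higher and none lower, mesenchymal genes 5 of 13 higher and none lower, and hemidesmosome genes 6 of 8 lower, with DST higher (0.55, SE 0.067), where 28.4% of all genes passed in either direction. Of 10 other keratins KRT16 (0.28, SE 0.074) and KRT80 (0.13, SE 0.048) rose. MITF, 1 of 4 melanocyte markers, rose by 0.67 (SE 0.046), with list means of 5.40 to 5.71 under siEGFR, against 5.18 to 5.58 under scramble siRNA, and no fibroblast, endothelial or leukocyte marker passed.

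**Figure D3:**
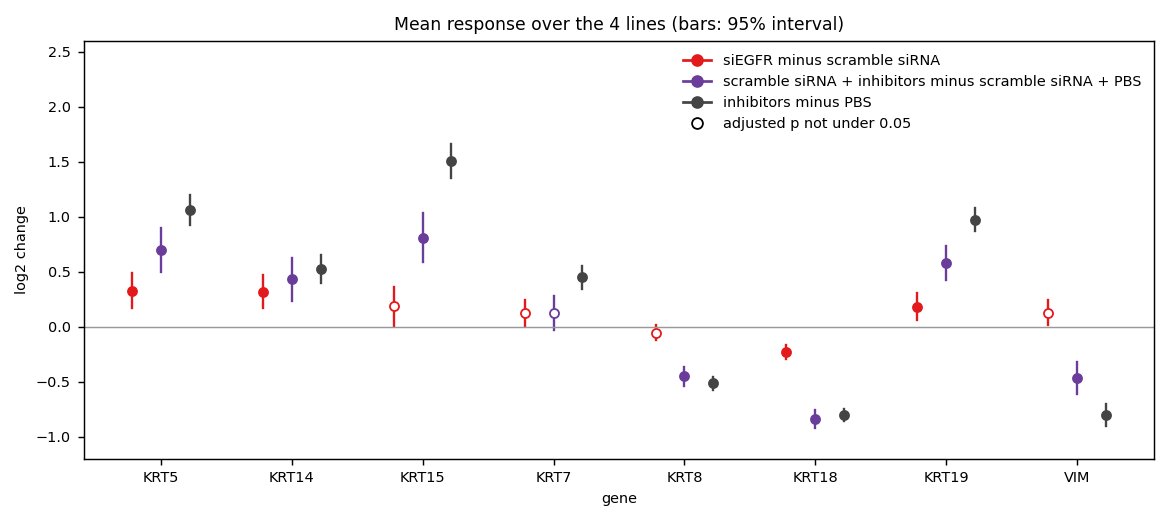
Mean log2 change over the 4 lines (vertical axis) of each gene (horizontal axis) for siEGFR against scramble siRNA, for scramble siRNA with inhibitors against scramble siRNA with PBS, and for inhibitors against PBS, with 95% intervals and open points where the adjusted p was not under 0.05. VIM lies at 0.13 under siEGFR, -0.47 under inhibitors with scramble siRNA and -0.81 under inhibitors alone. The -0.47 includes the HaCaT-Mock array with scramble siRNA and PBS that stood apart, and without HaCaT-Mock it was -0.61.

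Inhibitors were also given to cells that had scramble siRNA, on arrays apart from those above. Over the lines KRT15 rose by 0.81 (SE 0.11), KRT5 by 0.70 (SE 0.10), KRT19 by 0.58 (SE 0.077) and KRT14 by 0.43 (SE 0.097), and KRT18 changed by -0.84 (SE 0.041), VIM by -0.47 (SE 0.073) and KRT8 by -0.45 (SE 0.043). KRT7 was at 0.12 (adjusted p = 0.31), so 7 of 8 passed, against 19.3% of all genes. The single HaCaT-Mock array with scramble siRNA and PBS stood apart from the other HaCaT-Mock arrays without inhibitor. It read 12.25 for KRT15, where the HaCaT-Mock inhibitor arrays with scramble siRNA read 12.45 to 13.04 and the HaCaT-Mock scramble arrays 9.86 to 9.91, and it read 6.61 for VIM, beside 6.38 to 6.71 and 7.76 to 7.87. DUSP6 read 8.13 on it, beside 10.07, 9.94 and 9.83 on the scramble arrays. Without HaCaT-Mock all 8 genes passed, with KRT5 at 0.92 (SE 0.11), KRT15 at 0.90 (SE 0.13), KRT19 at 0.70 (SE 0.086), KRT14 at 0.63 (SE 0.11), KRT7 at 0.34 (SE 0.086, adjusted p = 0.0015), KRT8 at -0.44 (SE 0.048), VIM at -0.61 (SE 0.081) and KRT18 at -0.86 (SE 0.046). Scramble siRNA itself, against PBS over the lines, moved VIM by 0.26 (SE 0.059, adjusted p = 0.00055), KRT8 by 0.12 (SE 0.035, adjusted p = 0.0049) and KRT14 by -0.23 (SE 0.079, adjusted p = 0.02), 3 of 8, against 27.1% of all genes. Without HaCaT-Mock PBS replicate 1 the KRT14 value was -0.21 (adjusted p = 0.05), which did not pass.

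Across the 40 groups of line and treatment the members fell into pairs. Batch-adjusted group means of KRT8 and KRT18 correlated at r = 0.98, KRT5 and KRT14 at 0.96 and KRT15 and KRT19 at 0.95, and KRT5 ran against KRT18 (-0.96) and KRT8 (-0.95). KRT7 followed neither pair, with r between -0.0038 and 0.048 to KRT5, KRT14, KRT8 and KRT18, and -0.58 to VIM. VIM correlated at -0.75 with KRT19 and at 0.49 with both KRT8 and KRT18. These r describe 40 means that share lines, treatments and batch terms. The SD over the group means was 0.92 for KRT15, 0.84 for KRT5, 0.83 for KRT18, 0.60 for KRT8, 0.58 for VIM, 0.57 for KRT14, 0.50 for KRT19 and 0.28 for KRT7. Among 1643 other genes of at least median level and an SD of at least 0.3, those most like KRT5 were RNPEP (0.98), TCEA3 (0.98) and DZIP3 (0.98), and like KRT14 HSPB1 (0.96), CRIP2 (0.96) and VSNL1 (0.95). KRT15 was most like CYP4F12 (0.95), RHOV (0.95) and EMP2 (0.94), and KRT19 like ELF3 (0.96), OAS1 (0.93) and DTX3L (0.93). KRT8 and KRT18 shared ATP8A2 (0.97 each) and UPP1 (0.96 and 0.97), followed by APEX2 (0.96) for KRT8 and ACTN1 (0.97) for KRT18. KRT7 was most like MYADM (0.86), LIPA (0.86) and IGFL1 (0.84), and VIM like BNIP3 (0.89), PPAT (0.82) and FAM216A (0.80).

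**Figure D4:**
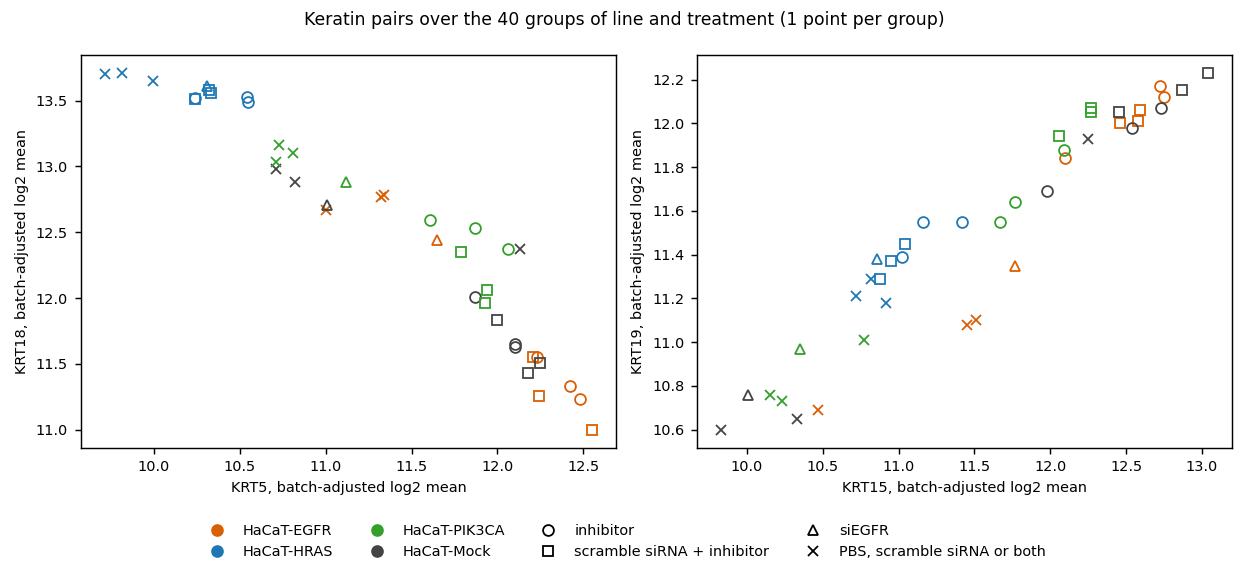
Batch-adjusted log2 means of KRT18 against KRT5 (left) and of KRT19 against KRT15 (right), 1 point for each of 40 groups, coloured by line and shaped by treatment. KRT18 falls as KRT5 rises (r = -0.96), with HaCaT-HRAS groups at the upper left, and KRT19 rises with KRT15 (r = 0.95).

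The head and neck carcinoma lines, untreated, were set against HaCaT-Mock under PBS, and SCC1 and SCC25 share those HaCaT-Mock arrays. SCC25 had basal keratins above HaCaT-Mock and simple keratins below it. KRT15 had 12.27 and 12.43 in SCC25 (batches J and M), against 10.33, 10.25 and 10.69 in HaCaT-Mock, a difference of 1.96 (SE 0.20). KRT5 was 1.34 higher (SE 0.18) and KRT14 0.89 higher (SE 0.17). KRT19 had 6.44 and 6.37, against 10.67, 10.60 and 10.84, a difference of -4.32 (SE 0.14, adjusted p = 3.9e-34), and KRT8 had 8.04 and 8.70, against 10.87, 10.85 and 10.92 (-2.81, SE 0.077). KRT18 differed by -2.00 (SE 0.076) and KRT7 by -1.57 (SE 0.14). VIM had 10.26 and 10.53 in SCC25, against 7.41, 7.39 and 7.18, 8.29-fold higher (3.05, SE 0.13, adjusted p = 7.6e-28). None of the 8 genes overlapped between the lines, and the share of all genes without overlap was not counted. All 8 passed the test, against 42.2% of all genes. Here vimentin ran against most passing genes of its list. Of 13 other mesenchymal genes TWIST1 was higher (3.41, SE 0.16) and 6 were lower, with FN1 at -3.87 (SE 0.10) and SPARC at -3.23 (SE 0.11). COL3A1, 1 of 6 fibroblast markers, was 3.24 higher in SCC25 (SE 0.19), and the mean of that list was 5.69 and 5.71, against 4.96 to 5.12 in HaCaT-Mock.

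SCC1 had basal keratins and KRT7 below HaCaT-Mock, and KRT8, KRT18 and VIM near it. KRT15 had 6.80 and 6.58 in SCC1, against 10.33, 10.25 and 10.69 in HaCaT-Mock (-3.70, SE 0.20), and KRT14 had 9.15 and 10.02, against 12.45, 12.37 and 12.03 (-3.03, SE 0.17). KRT7 had 7.23 and 7.47, against 11.36, 11.27 and 11.34, a difference of -4.36 (SE 0.14, adjusted p = 1.5e-33), and KRT5 differed by -1.73 (SE 0.18) and KRT19 by -0.55 (SE 0.14, adjusted p = 0.00069), which with batch J arrays alone was -0.56 (adjusted p = 0.07). KRT8 was at -0.13 (95% interval -0.28 to 0.029), KRT18 at -0.037 (-0.19 to 0.12) and VIM at -0.011 (-0.27 to 0.25). These were 5 of 8 genes, against 37.4% of all genes. Of the linkers PKP1 (-2.39, SE 0.16), JUP (-1.64, SE 0.13) and DSP, desmoplakin (-0.75, SE 0.10), were lower, among 5 of 10 lower and 2 higher, and 5 of 6 keratinocyte identity genes were lower, with list means of 9.68 and 9.75 in SCC1, against 10.91 to 11.11 in HaCaT-Mock. MITF, 1 of 4 melanocyte markers, was at -0.71 (SE 0.10) in SCC1 and at 1.08 (SE 0.10) in SCC25.

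FaDu and parental HaCaT had single arrays per condition and no test. FaDu read 12.41 untreated (batch M) and 12.66 with PBS (batch P) for KRT5, but 7.61 and 7.40 for KRT14, where the SCC25 arrays read 13.25 and 13.76 and the HaCaT-Mock arrays 12.03 to 12.45. FaDu also read 12.77 and 13.05 for KRT19, 13.48 and 13.31 for KRT18, 12.18 and 11.76 for KRT8 and 9.41 and 9.12 for KRT7. Its VIM level was the lowest of the lines without inhibitor, at 6.09 (batch M) and 4.80 (batch P). The batch P array was alone in its batch and could not be adjusted for it, and its ACTB 3' to 5' difference was 2.645. Parental HaCaT cells (1 array, batch M) read 12.96 for KRT5, 13.60 for KRT14, 12.40 for KRT15, 12.24 for KRT7, 11.43 for KRT8, 12.44 for KRT18, 12.03 for KRT19 and 6.51 for VIM. For KRT15, KRT18, KRT19 and VIM, whose batch shifts were small, these lay beyond the HaCaT-Mock PBS arrays (10.25 to 10.69, 12.83 to 12.93, 10.60 to 10.84 and 7.18 to 7.41) on the side of the inhibitor arrays.

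**Figure D5:**
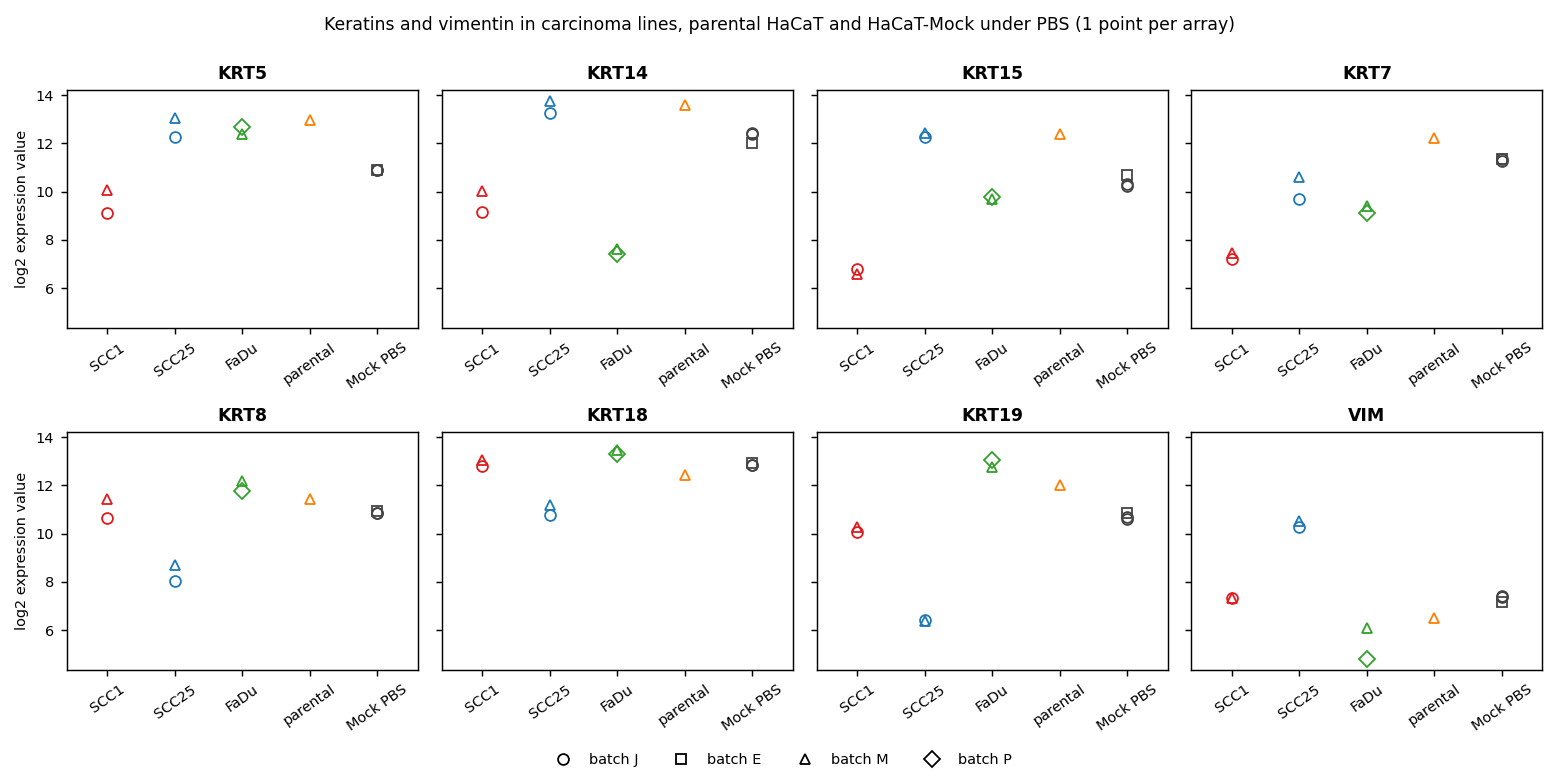
Log2 expression (vertical axes) of the 8 genes on each array of SCC1, SCC25, FaDu, parental HaCaT and HaCaT-Mock under PBS (horizontal axis), with point shape for batch. SCC25 has KRT19 at 6.44 and 6.37 and VIM at 10.26 and 10.53, SCC1 has KRT15 at 6.80 and 6.58, and FaDu has KRT14 at 7.61 and 7.40.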

How the data were processed

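RNA of 96 human arrays was measured on the U133 Plus 2.0 platform. The authors deposited 1 normalized log2 value per probe set and array. The submitters' notes name affy, and the study's methods describe frozen robust multiarray analysis, removal of outlier arrays and surrogate variable batch correction, but whether each step was applied to the values used is not stated there, and batch shifts left in them may affect the levels. Probe sets were named from the platform annotation (41091 with 1 symbol, 1801 with several, 11777 unnamed here), and each gene took its brightest probe set by mean level in the HaCaT construct lines. The study's own probe set rule chose the same probe sets for the 8 genes. The number of arrays limits the precision.

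The deposited log2 values were fitted with limma 3.58.1 in R 4.3.3, in 1 model over 89 HaCaT construct arrays with 40 groups and the batch (47 residual degrees of freedom). Carcinoma lines were tested in a model of 95 arrays. Comparisons over lines weighted the lines equally, and p-values were adjusted by Benjamini-Hochberg over all genes. The script was tested on simulated data. Alternatives were the fit without batch, batch J alone, the compared groups alone, array weights, a filter on dim genes, quantile normalization, a replicate block, leaving out each array and leaving out 3 arrays in doubt. The fit without HaCaT-Mock for scramble siRNA arrays and the differences within batches were chosen after seeing the data.

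The text names the 8 genes, for each list the 3 passing genes of lowest adjusted p, the 3 genes most like each member and EGFR. DUSP6 was chosen after its values were seen. The 8 members and the gene lists were chosen with earlier results of these data known.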

Additional observations from a re-analysis of the deposited data

Results flagged for a closer look

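The inhibitor response differed between HaCaT-HRAS and HaCaT-Mock cells, in a test of the difference itself, for 6 of the 8 genes. As HaCaT-HRAS minus HaCaT-Mock on the log2 scale, the values were -1.81 for KRT15, -0.95 for KRT19, -0.58 for KRT5, 0.57 for KRT8, 0.75 for VIM and 0.91 for KRT18. Each lay opposite to the HaCaT-Mock response, so these genes moved less in HaCaT-HRAS. The inhibitor response of KRT18 also differed between HaCaT-PIK3CA and HaCaT-Mock, by 0.51. KRT5 and the HaCaT-PIK3CA value lost their calls with batch J arrays alone (adjusted p = 0.27 and 0.37). No group had enough arrays for a test of a single array that stands far from its group.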

How the results depend on the processing

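No value changed direction where it passed the test with or without the alternative. Of 7488 values recomputed, 110 changed sign, all of 34 differences that passed under neither and were reported at no more than 0.13 in size, such as KRT7 in the difference of inhibitor responses between HaCaT-HRAS and HaCaT-Mock (-0.028 without the 3 arrays in doubt). Of the same values 7123 kept their side of the threshold, while 232 lost and 133 gained a call; the cause was not tested. Without a batch term the number of the 8 genes called was 3 for HaCaT-HRAS against HaCaT-Mock under PBS, 3 under scramble siRNA, 2 for HaCaT-EGFR under scramble siRNA, 0 for HaCaT-PIK3CA under PBS, 0 for inhibitors in HaCaT-HRAS, 5 for inhibitors in HaCaT-PIK3CA and 1 for siEGFR over the lines. That fit also gave 6 for inhibitors in HaCaT-Mock, 6 in HaCaT-EGFR and 5 for inhibitors with scramble siRNA over the lines. With batch J arrays alone it was 0 for HaCaT-PIK3CA under PBS, 1 for HaCaT-EGFR under scramble siRNA and 1 for inhibitors in HaCaT-HRAS. Those arrays also gave 4 for HaCaT-HRAS under PBS, 6 for inhibitors in HaCaT-PIK3CA, 3 for siEGFR over the lines and 4 for SCC1. With the compared groups alone it was 0 for HaCaT-EGFR and 0 for HaCaT-PIK3CA under PBS, 3 for inhibitors in HaCaT-HRAS, 6 for inhibitors in HaCaT-PIK3CA and 7 for siEGFR over the lines. With array weights it was 2 for HaCaT-EGFR and 3 for HaCaT-PIK3CA under PBS, 8 for HaCaT-EGFR under scramble siRNA and 7 for siEGFR. Without the 3 arrays in doubt it was 3 for HaCaT-PIK3CA under PBS, 8 for HaCaT-EGFR under scramble siRNA and 7 for siEGFR. With genes of at least median level alone it was 8 for HaCaT-EGFR under scramble siRNA, and with quantile normalization 0 for HaCaT-PIK3CA under PBS. Leaving out each array gave 2 to 5 for HaCaT-EGFR under scramble siRNA (2 without HaCaT-EGFR scramble replicate 3 or HaCaT-Mock scramble replicate 3), 2 to 5 for inhibitors in HaCaT-HRAS, 4 to 6 for HaCaT-HRAS under PBS, 7 to 8 for inhibitors in HaCaT-PIK3CA and 0 to 0 for HaCaT-PIK3CA under PBS. Groups with 1 array could not be left out. Replicate numbers did not pair the arrays (median r = 0.0031 over 190 pairs of groups, 9 over 0.1). With the replicate block 0 genes were called for HaCaT-PIK3CA under PBS and 6 for HaCaT-HRAS under PBS, and KRT5 lost its difference in response between HaCaT-HRAS and HaCaT-Mock (-0.51, adjusted p = 0.13).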
